A study of Mus musculus with 68 samples.

Results

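The response of PWK fibroblasts to tunicamycin (TM) was measured by RNA-seq in 6 of the 68 libraries of the series, 3 from cultures given TM and 3 from control cultures, numbered as replicates 1 to 3 in each group. PWK/PhJ is a wild-derived inbred strain of Mus musculus musculus, and the cells were mouse embryonic fibroblasts (MEFs), primary cells that divide in culture for a limited number of passages. TM cultures received 2 µg/ml of the drug for 4 h and control cultures received 0.1% DMSO, its solvent. The libraries were chosen by strain label alone. The 7 other founder strains used for comparison, 129, A, B6, CAST, NOD, NZO and WSB, were treated alike and bring the founder libraries to 40. No transgene, deletion or other allele was introduced in any group. MEFs of a strain came from several female embryos of a litter that were pooled, so the 3 PWK replicates of a group are cultures of 1 pooled cell stock and not 3 animals, and the p-values below measure the spread between these cultures. Of 13197 genes listed, 12730 had a normalized signal of at least 0.5 in at least 2 of the 6 libraries and were tested.

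TM inhibits Dpagt1, the enzyme that starts the lipid-linked sugar chain of N-glycosylation, and proteins that miss their glycans misfold in the endoplasmic reticulum (ER). The unfolded protein response (UPR) then works through 3 sensors in the ER membrane. IRE1 (Ern1) splices Xbp1 mRNA, ATF6 is cut in the Golgi into a transcription factor, and PERK (Eif2ak3) slows translation while ATF4 is made. XBP1 and ATF6 raise chaperones and the machinery of ER-associated degradation (ERAD), whereas ATF4 and CHOP (Ddit3) act on amino acid supply, redox genes and cell death genes. The stressed ER is also known to activate NF-kB, a factor that raises inflammatory genes.

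The promoters of 4 of the most strongly induced genes are shown because each holds a letter pattern known from one of these arms. They span 250 bases before to 50 bases after the start of the gene, are RefSeq sequences of GRCm38.p6 on the plus strand, and come from the C57BL/6J reference genome, so PWK may differ from them. Capitals mark matches to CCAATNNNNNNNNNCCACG (the ER stress response element, ERSE) in Hspa5, to ATTGGNCCACG (ERSE-II) and TGATGNAA (the core shared by C/EBP-ATF elements) in Herpud1, to TGATGNAA in Chac1, and to GGGNNTTTCC (a kappaB pattern) in Cxcl2. Matches on the other strand are marked too, as TTGCATCA in Herpud1 and Chac1.
Hspa5 (chr2:34771840-34772139): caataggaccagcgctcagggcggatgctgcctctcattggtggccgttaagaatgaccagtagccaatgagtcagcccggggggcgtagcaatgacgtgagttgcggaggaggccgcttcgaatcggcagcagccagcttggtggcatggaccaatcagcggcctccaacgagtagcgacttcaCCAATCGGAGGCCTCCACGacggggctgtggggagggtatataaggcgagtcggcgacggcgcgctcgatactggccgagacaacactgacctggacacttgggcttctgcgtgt
Herpud1 (chr8:94386179-94386478): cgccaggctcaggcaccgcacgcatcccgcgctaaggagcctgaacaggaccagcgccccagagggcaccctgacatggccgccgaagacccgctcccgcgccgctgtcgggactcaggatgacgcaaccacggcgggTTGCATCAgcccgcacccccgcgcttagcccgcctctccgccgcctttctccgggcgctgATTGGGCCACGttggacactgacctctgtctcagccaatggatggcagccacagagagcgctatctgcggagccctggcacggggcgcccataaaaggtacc
Chac1 (chr2:119350992-119351291): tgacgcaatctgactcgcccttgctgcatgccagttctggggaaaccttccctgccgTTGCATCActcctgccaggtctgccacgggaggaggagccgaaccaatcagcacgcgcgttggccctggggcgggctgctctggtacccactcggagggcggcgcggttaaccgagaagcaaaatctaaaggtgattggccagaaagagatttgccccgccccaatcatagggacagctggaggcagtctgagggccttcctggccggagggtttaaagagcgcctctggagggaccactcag
Cxcl2 (chr5:90903649-90903948): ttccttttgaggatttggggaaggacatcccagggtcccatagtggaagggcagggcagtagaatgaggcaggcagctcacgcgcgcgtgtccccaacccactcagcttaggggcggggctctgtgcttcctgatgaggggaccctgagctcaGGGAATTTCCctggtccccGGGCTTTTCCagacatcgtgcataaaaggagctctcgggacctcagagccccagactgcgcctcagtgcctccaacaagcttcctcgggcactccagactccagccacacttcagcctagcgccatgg

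The ERSE match of Hspa5 starts 65 bases before the start of the gene and the ERSE-II match of Herpud1 52 bases before it. The 2 kappaB matches of Cxcl2 start 97 and 78 bases before the start. A promoter was found for 9914 of the tested genes, 629 of the induced genes and 425 of the lowered genes described below. ERSE was present in 11 induced genes (1.75%), in 18 of all tested genes (0.182%) and in 0.119% of all 32851 promoters, counting both strands. The induced holders included Derl3, Hspa5, Creld2, Syvn1, Hsp90b1, Dnajc3, Pdia6, Alg12, Calr and Canx. ERSE-II was present in 4 induced genes, among them Herpud1 and Dnajb11, of 8 tested genes and in 0.0365% of all promoters. TGATGNAA was found in 7.31% of induced, 1.18% of lowered and 2.69% of all tested genes, and in 3.97% of all promoters. The kappaB pattern was found in 4.93% of induced, 1.18% of lowered and 2.03% of all tested genes, and in 1.63% of all promoters. A further pair of patterns was searched. The AP-1 pattern TGAGTCA was in 7.15% of induced, 3.53% of lowered and 4.63% of all tested genes and in 5.2% of all promoters. The CRE pattern TGACGTCA was in 5.72% of induced, 1.41% of lowered and 3.63% of all tested genes and in 1.79% of all promoters. No searched pattern lies inside another, though matches may share bases. The patterns were chosen with the induced genes known, and a match describes letters and not binding.

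The PWK libraries held 10064009 to 19675510 reads on listed genes, with a median of 17067925 in control and 10749453 in TM cultures. Within a group the libraries correlated more closely than between groups, with control replicate 1 slightly apart from the other controls (r across genes of 0.991 to 0.993, against 0.995 between the other controls). Gene names came from GENCODE M21 for 13023 genes, and 151 identifiers stayed unnamed. The cell type label was checked against marker genes. The summed signal of 10 fibroblast markers was 47097 to 55934 in control and 38885 to 49627 in TM libraries. The summed signal of 12 myeloid markers was 18.2 to 19.6 in control and 16.4 to 17.9 in TM libraries, and that of 5 endothelial markers was 3.48 to 4.08 and 4.16 to 5.56. The 4 listed epithelial markers summed to 105 to 119 in control and 100 to 118 in TM libraries, most of it from the keratins Krt18 and Krt19, whereas the adhesion gene Cdh1 reached at most 0.666. The 2 listed muscle markers summed to 51.5 to 65.5 in control and 45.8 to 50.6 in TM libraries, nearly all of it from the intermediate filament gene Des. No tested marker of these 5 lists passed the test in PWK. In such bulk libraries, fewer cells of a type and less RNA per cell cannot be told apart.

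After 4 h of TM, 810 genes were induced and 548 were lowered, which is 6.36% and 4.3% of the tested genes. A gene was called at an adjusted p under 0.01 and a change of at least 1.5-fold, with limma on log2(signal + 0.1), so that fold changes of low genes are understated. Induction was the larger side of the response in size as well as in number. Among the induced genes 307 rose at least 2-fold, 63 at least 4-fold and 20 at least 8-fold, with a median of 1.82-fold. Among the lowered genes 136 fell at least 2-fold and 4 at least 4-fold, with a median log2 fold change of -0.81. Over all tested genes the median log2 fold change was -0.03. The share of the summed signal carried by the induced genes was 4.18% in control and 9.23% in TM cultures. In all 1358 called genes the TM values lay beyond the control values, but so they did in 45.1% of all tested genes.

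**Figure D1:**
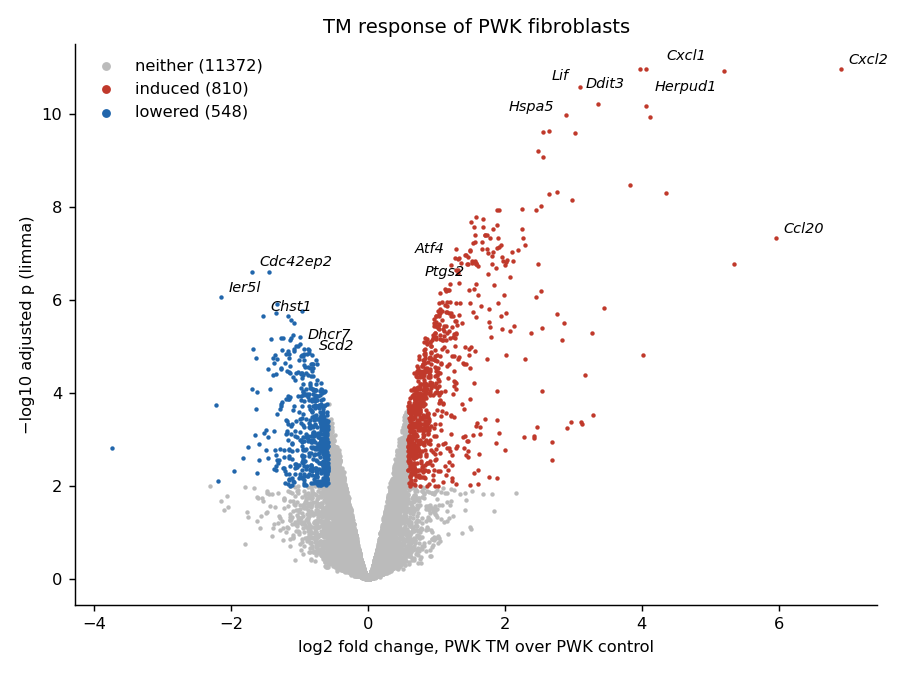
Log2 fold change of PWK TM over PWK control (x axis) against -log10 of the adjusted p from limma (y axis) for the 12730 tested genes. The 810 induced genes (red) reach a log2 fold change of 6.90 for Cxcl2, whereas most of the 548 lowered genes (blue) lie above -2.

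Of 25 ER chaperones and folding enzymes 17 were induced (68%, against 6.36% of all tested genes) and 8 were not called. The list had a median log2 fold change of 0.96. Hspa5, which encodes the main ER chaperone BiP, had signals of 990, 1042 and 1065 in control and 8047, 7082 and 7971 in TM cultures. This was a 7.45-fold rise (log2 2.90, SE 0.09, adjusted p = 1.07e-10), and its share of all signal went from 0.101% to 0.751%. Dnajb9, a BiP co-chaperone, stood at 14.8, 18 and 15.8 in control and at 152, 137 and 100 in TM cultures. Sdf2l1, another partner of BiP, rose 8.14-fold and Creld2, an ER protein with disulphide isomerase activity, 5.85-fold. Hsp90b1, the ER form of HSP90, had signals of 1153, 1231 and 1278 against 3963, 3663 and 4048 and rose 3.19-fold. The groups of these 5 genes did not overlap. That held for all 1358 called genes and, for TM above control, in 21.7% of all tested genes. The lectin chaperone Calr rose 1.69-fold and the disulphide isomerase Pdia3 1.94-fold. Members that did not pass were, among others, P4hb, a disulphide isomerase at 1451 ± 46.2 in control and 1797 ± 106 in TM cultures (mean ± SD, n = 3), and Txndc5 at 661 ± 27.2 and 604 ± 5.

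In the ERAD list 8 of 22 genes were induced (36.4%, against 6.36% of all tested genes) and 14 were not called. The list had a median log2 fold change of 0.22. The 8 comprised the membrane complex that moves proteins out of the ER, with Herpud1, Derl1, Derl2, Derl3, Syvn1, Sel1l and Selenos, and the mannosidase-like Edem1. Herpud1, a scaffold of this complex, was at 85.4, 75.2 and 80.9 in control and at 1491, 1389 and 1159 in TM cultures, a 16.6-fold rise (adjusted p = 1.13e-11). Derl3 was at most 0.71 in control and 12 to 15.8 in TM cultures, a 20.4-fold rise. The ubiquitin ligase Syvn1 rose 3.69-fold and its partner Sel1l 2.71-fold. Among the genes not called was Vcp, the ATPase that extracts proteins from the ER, at 711 ± 12.5 in control and 768 ± 33.1 in TM cultures.

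Of the 13 UPR sensors and transcription factors 3 were induced (23.1%, against 6.36% of all tested genes). Xbp1 mRNA rose from 153, 142 and 142 to 346, 308 and 260 (2.08-fold, adjusted p = 7e-06), and the values are gene totals that do not separate the spliced form. Ern1 rose 1.76-fold and Atf6 1.51-fold, which is close to the 1.5-fold limit. Eif2ak3 was at 45.2, 43.5 and 47.9 in control and at 51, 55.4 and 56.6 in TM cultures. Its groups did not overlap, yet the 1.19-fold change did not pass (adjusted p = 0.0551).

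The ATF4-CHOP arm was among the most strongly induced lists, with 14 of 18 genes induced (77.8%, against 6.36% of all tested genes). Its median log2 fold change was 1.32. Atf4 itself was at 306, 296 and 301 in control and at 806, 745 and 694 in TM cultures (2.48-fold). Ddit3, which encodes the death-promoting factor CHOP, was at 31.3, 28.6 and 33.2 against 505, 434 and 527, a 15.7-fold rise (log2 3.97, SE 0.10, adjusted p = 1.13e-11). Atf3, a further stress factor of the same bZIP family, rose 17.4-fold from 3.14 ± 0.455 to 56.1 ± 5.3. All 3 genes kept the groups well apart. Chac1, which degrades glutathione, rose 6.75-fold, and Ppp1r15a (GADD34), the phosphatase subunit that restarts translation, rose 5.86-fold. The secreted hormone Fgf21 had 4 reads in the 3 control libraries together and 94 in the TM libraries, a ratio of 30.5 with a 95% interval of 11.5 to 114 that covers counting error only. Members that did not pass included Atf5, at 208 ± 11.8 in control and 184 ± 21.2 in TM cultures, and the companion phosphatase subunit Ppp1r15b (log2 0.49).

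In the list of amino acid synthesis and transport 11 of 19 genes were induced (57.9%), with a median log2 fold change of 0.86. In that of the cytosolic tRNA synthetases 11 of 20 were induced (55%), with a median of 0.65. The share over all tested genes was 6.36%. Slc7a11, the cystine transporter, rose from 10.7, 13.8 and 14.5 to 46.5, 54.9 and 50.6 (3.9-fold). Slc3a2, the chain it pairs with in the membrane, rose 2.56-fold and Cth, which makes cysteine, 2.87-fold. The serine pathway enzyme Phgdh did not pass, at 449 ± 43.3 in control and 544 ± 28.9 in TM cultures. Among the synthetases Cars rose 2.05-fold, Tars 1.95-fold, Yars 1.87-fold and Nars 1.78-fold. Iars changed 1.47-fold, just under the limit, and Vars 1.16-fold (adjusted p = 0.0938).

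Most genes of the pathway that TM blocks did not pass the test. Of 35 genes of N-glycan assembly 3 were induced (8.57%), 1 was lowered (2.86%) and 31 were not called. The shares over all tested genes were 6.36% and 4.3%. The median log2 fold change of the list was 0.09 and became -0.02 after correction for GC content and length. The target Dpagt1 was at 43.3, 41 and 42.7 in control and at 44.4, 50.6 and 31 in TM cultures, so that the TM values lay on both sides of the control values (log2 -0.04, SE 0.15, adjusted p = 0.859). Gnpnat1, which acts in making the UDP-GlcNAc that Dpagt1 uses, rose 2.47-fold from 33.4, 36 and 36.6 to 105, 85.4 and 74.4. The mannosyltransferases Alg12 and Alg2 rose 1.85-fold and 1.81-fold. Ost4, a small subunit of the oligosaccharyltransferase, fell from 62.6 ± 5.24 to 39.9 ± 3.66. Its larger subunit Rpn2 was at 446 ± 21.5 and 484 ± 32.2 and did not pass. Of 54 genes of the translocon and of ER to Golgi transport 3 were induced (5.56%), which is below the share over all tested genes. They were the signal peptidase subunits Spcs3 (2.2-fold), Spcs2 and Sec11c, and the list had a median log2 fold change of 0.16. The cargo receptor Surf4 and the coat subunit Copg1 did not pass, with log2 fold changes of 0.11 and -0.16. Without control replicate 1, Alg2, Ost4 and Sec11c were not called, and Sec11c was also not called after that correction.

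**Figure D2:**
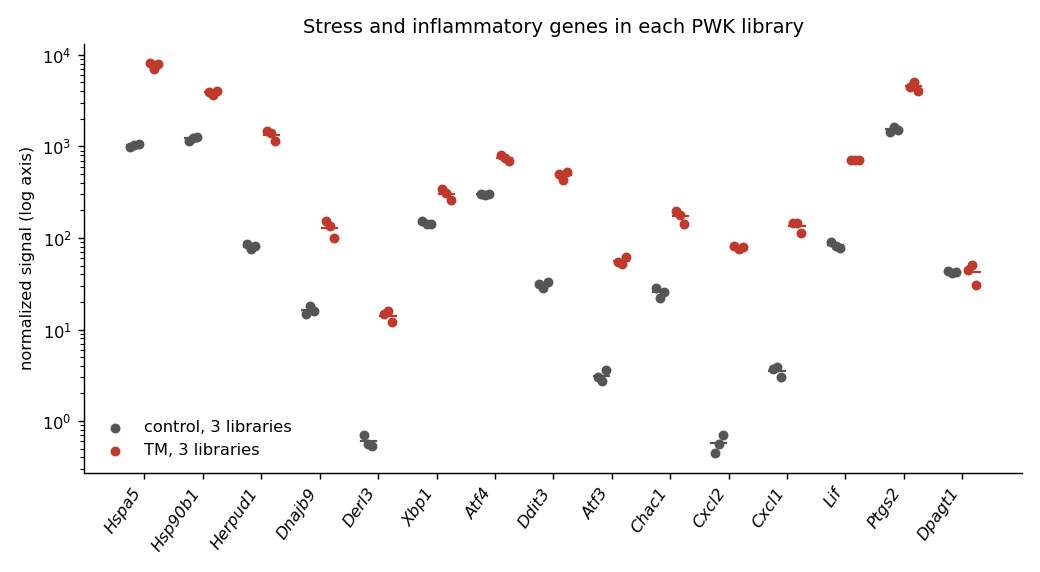
Normalized signal (y axis, log scale) of 15 genes in each of the 3 control (grey) and 3 TM (red) PWK libraries, with bars at the group means. All but Dpagt1 have TM values above the control values, from 2.08-fold for Xbp1 to a control mean of 0.571 and a TM mean of 79.3 for Cxcl2.

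The largest fold changes of all were those of secreted inflammatory genes. Of 37 inflammatory mediators and NF-kB factors 27 were induced (73%, against 6.36% of all tested genes) and 10 were not called. The list had a median log2 fold change of 1.56. The neutrophil chemokine Cxcl2 was at 0.444, 0.563 and 0.706 in control and at 82.3, 75.7 and 79.9 in TM cultures (log2 6.90, SE 0.16, adjusted p = 1.13e-11). Cxcl1, its close relative, was at 3.73, 3.94 and 3 against 146, 145 and 114, a 36.9-fold rise. Cxcl5 rose 10.2-fold, from 36 ± 0.412 to 372 ± 49.1. The chemokine Ccl20 had 2 reads over all control libraries and 286 over all TM libraries, a ratio of 185 (95% interval 50.9 to 1539). The cytokine Csf2 had 4 and 233 reads, a ratio of 75.6 (29.1 to 280), and Tnf 1 and 33 reads, a ratio of 42.8 (7.17 to 1741). These 3 genes were thus near the limit of detection in control cultures. Casp4, an inflammatory caspase, was 0.235 to 0.266 in control and 3.31 to 4.77 in TM cultures.

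Mediators that were already detected at many reads in control cultures rose as well. Lif, an IL6-family cytokine, was at 90.7, 80.8 and 77.3 in control and at 703, 714 and 711 in TM cultures, an 8.57-fold rise with a very small spread. Ptgs2 (COX-2), the inducible enzyme of prostaglandin synthesis, was at 1426, 1645 and 1528 against 4463, 5024 and 4076 (2.94-fold). Hbegf, an EGF receptor ligand outside the list, rose 2.08-fold from 730 ± 11.5 to 1520 ± 49.3. Feedback regulators of NF-kB were induced too, with Tnfaip3 at log2 2.64, Nfkbia at 1.92 and Birc3 at 2.12. Rela, a DNA-binding subunit of NF-kB, did not pass (log2 0.44), nor did Csf1, at 1795 ± 70.1 in control and 2595 ± 31.8 in TM cultures, a change of 1.45-fold. Myeloid cells express many of these genes. Of the 12 myeloid markers listed, Csf1r, Lyz2, Cd68 and Cd14 held most of the summed signal given above, with values of 1.84 to 5.3 in every PWK library, and the other 8 stayed at or below 1.16. The 6 tested markers had log2 fold changes of -0.34 to 0.49, and the part of such cells in the result was not tested.

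Of 23 AP-1 and immediate early genes 15 were induced (65.2%, against 6.36% of all tested genes), with a median log2 fold change of 0.84. Egr1 was at 72, 72.3 and 71.1 in control and at 372, 411 and 266 in TM cultures (4.79-fold), Myc rose 3.2-fold and Junb 2.37-fold. The MAP kinase phosphatase Dusp1 did not pass (log2 0.14). Of 22 p53 targets and BCL2 family genes 9 were induced (40.9%) and 1 was lowered (4.55%), with a median of 0.24. The shares over all tested genes were 6.36% and 4.3%, so the lowered share was near that of all genes. Gadd45a, a growth arrest gene, rose 16.7-fold from 7.36, 9.37 and 8.12 to 148, 119 and 154. The kinase Plk2 rose 2.85-fold and the death receptor Fas 2.79-fold, whereas Bak1, a pore-forming death protein, fell from 141 ± 11.6 to 92.4 ± 4.01. Bak1 was not called without control replicate 1 or after the GC correction. The p53 target Ccng1 had a log2 fold change of 0.13 and did not pass. Cass4, an adaptor at focal adhesions and a member of none of these lists, rose 14.2-fold, from 1.33, 1.95 and 1.47 to 21.3, 24.2 and 25.4.

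**Figure D3:**
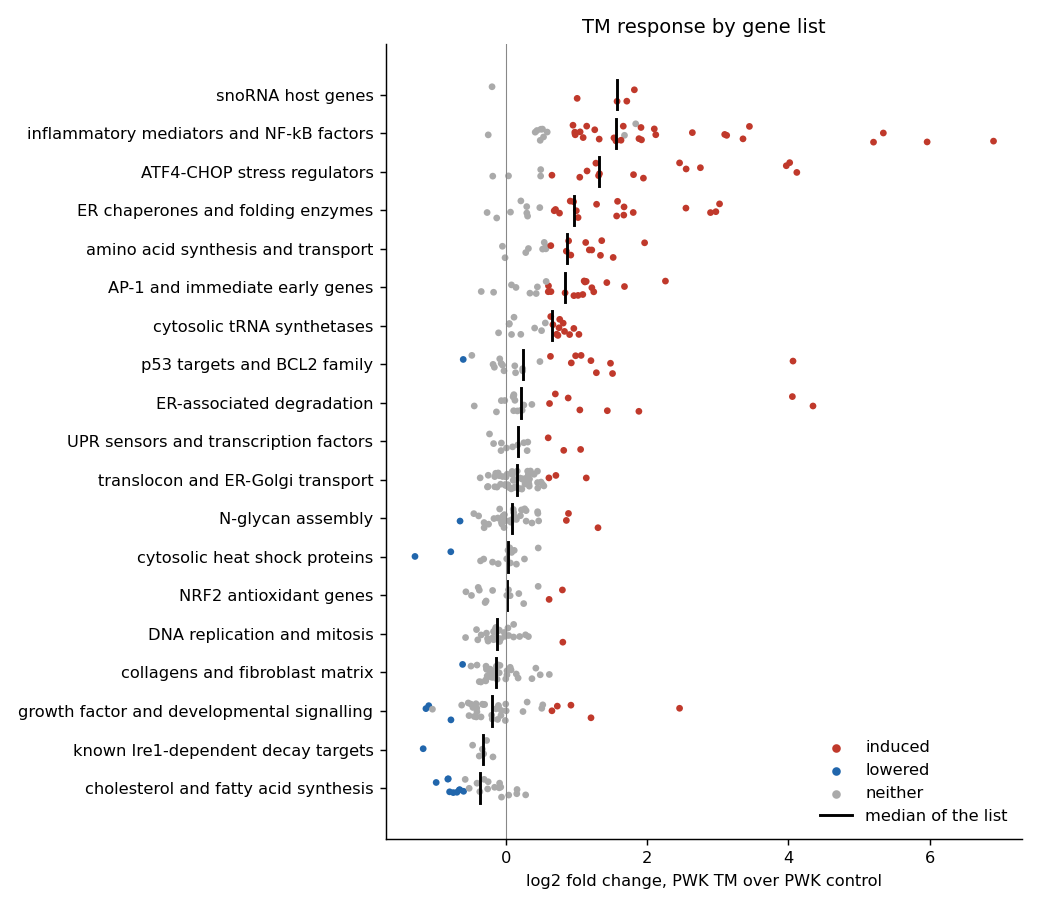
Log2 fold change of PWK TM over PWK control (x axis) for every tested gene of 19 lists (rows), in order of the list median (black bar), with induced genes in red and lowered genes in blue. The inflammatory list has a median of 1.56 and extends to 6.90, and the list of cholesterol and fatty acid synthesis has a median of -0.37 with all of its called genes lowered.

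The lowered genes reached smaller fold changes than the induced genes, and their number depended more on control replicate 1, without which 301 were lowered. Ier5l, an immediate early response family member, was at 76.7, 55.8 and 46.6 in control and at 16, 11.5 and 12.4 in TM cultures (log2 -2.15, SE 0.17, adjusted p = 8.65e-07). Cdc42ep2, an effector of the GTPase CDC42, went from 47, 41 and 40.5 to 14.8, 13.3 and 11.6, and the potassium channel gene Kcnk6 from 4.18 ± 0.25 to 1.23 ± 0.268. The groups of all 3 were far apart. A further 3 genes fell at least 4-fold at low levels and are named after their values were seen. Kif26a fell from 1.65 or more in control to at most 0.378, and Kbtbd11 from 0.706 or more to at most 0.306. Cfd, an adipocyte-derived complement factor, was at 5.85 in control replicate 1 and at 0.461 and 1.06 in the other controls, with 1 read in the TM libraries together.

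Some enzymes of sugar chains were lowered as well. Mgat3, which adds a bisecting GlcNAc to N-glycans, was at 6.56, 6.09 and 6.12 in control and at 1.99, 1.71 and 1.96 in TM cultures. Pomgnt2, which extends O-mannosyl glycans, went from 11.9, 10.1 and 9.94 to 3.78, 3.83 and 2.57. Chst1, a sulphotransferase of keratan sulphate, went from 24.1 ± 2.85 to 8.28 ± 1.02. These 3 come from no list and were put together after their values were seen, and another sugar chain enzyme, Hs3st3b1, was induced. Gas1, a membrane protein of growth arrest and Hedgehog signalling, went from 8.34, 5.84 and 4.06 to 1.61, 2.42 and 2.08.

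The clearest list on the lowered side was cholesterol and fatty acid synthesis, in which 9 of 25 genes were lowered and 16 were not called, against 4.3% of all tested genes. The median log2 fold change was -0.37. Dhcr7, a late enzyme of cholesterol synthesis, fell from 75.2, 67 and 65 to 33.7, 37.7 and 33 (adjusted p = 8.97e-06). The desaturase Scd2 was at 524, 566 and 558 against 295, 341 and 301, and Fasn, the fatty acid synthase, at 902, 784 and 786 against 424, 496 and 561. The groups did not overlap in any of the 3. That held for all 1358 called genes and, for TM below control, in 23.4% of all tested genes. Elovl6, Acly, Nsdhl, Lss and Mvk fell as well. With a correction for GC content and length 5 genes of the list were lowered, and Fasn was no longer called.

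Among 38 growth factor and developmental signalling genes 5 were induced and 3 were lowered, with a median log2 fold change of -0.20. The shares were 13.2% and 7.89%, against 6.36% and 4.3% of all tested genes. Id1, a BMP target that blocks bHLH factors, fell from 116, 102 and 95.3 to 48.5, 41.4 and 53.3. Its relative Id2 fell from 19.8 ± 2.43 to 9.34 ± 2.24, and the BMP antagonist Smad6 was lowered too, though Smad6 was not called without control replicate 1. The Notch-linked repressor Hey2 rose 5.5-fold from 1.85 ± 0.203 to 10.8 ± 2.37, and the Notch ligand Jag1 rose 1.89-fold. Spry4, a brake on receptor kinase signalling, rose 2.3-fold, with Spry1 and Spry2 also induced.

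Fibroblasts are a main source of extracellular matrix. Of 33 collagen and matrix genes 1 was lowered (3.03%, against 4.3% of all tested genes). It was Col6a3 (843, 780 and 795 in control, 414, 509 and 692 in TM cultures). Col6a3 was not called without control replicate 1 or after the GC correction. The list median was -0.14. Fn1 was at 14438 ± 466 in control and 10952 ± 1602 in TM cultures (adjusted p = 0.0211). The groups overlapped for Col1a1 (13592 ± 2342 and 12472 ± 2132) and for Thbs1 (14661 ± 440 and 13462 ± 2034). Hspg2, the basement membrane proteoglycan perlecan, fell from 3764, 3258 and 3184 to 1296, 1898 and 2435. Its log2 fold change of -0.90 became -0.33 after the GC correction and no longer passed. Pkd1, polycystin-1, fell from 528, 488 and 487 to 181, 256 and 280 and remained called in both.

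Of 7 transcripts known to be cut by IRE1, 1 was lowered (14.3%, against 4.3% of all tested genes). Scara3, a scavenger receptor, fell from 31.2, 29.3 and 30.2 to 11.4, 13.5 and 15.5 (adjusted p = 1.28e-05). Sparc and Col6a1 from the same list had log2 fold changes of -0.18 and -0.38 and did not pass. In all 7 the TM values lay below the control values, as they did in 23.4% of all tested genes. The list median was -0.33, and -0.17 after the GC correction. Of 15 cytosolic heat shock proteins 2 were lowered (against 4.3% of all tested genes) and 13 were not called, and the number lowered was 1 after the GC correction and 1 without control replicate 1. Hspa1b was at 29.9, 24.9 and 25.1 in control and at 9.93, 8.16 and 15.6 in TM cultures. Hspa1a, whose call was the one lost, fell as well, but these 2 genes are near copies whose reads may be divided between them. The constitutive Hspa8 and Hsp90ab1 had log2 fold changes of -0.11 and 0.01. Of 80 cytosolic ribosomal protein genes 3 were lowered (3.75%), Rps29, Rpl37 and Rps21, near the 4.3% of all tested genes. The number lowered was also 3 with edgeR on 6 libraries, and none of the 3 named was called without control replicate 1. Of 29 genes of DNA replication and mitosis 1 was induced (3.45%, against 6.36% of all tested genes). It was Cdc6 (10.2 ± 1.33 to 17.8 ± 1.69), and the list median was -0.12. Of 15 NRF2 genes 2 were induced (13.3%, against 6.36% of all tested genes), Sqstm1 (1.74-fold) and Nfe2l2 itself (1.53-fold). Nfe2l2 was not called without control replicate 1 or after the GC correction, and Hmox1 (log2 0.46) did not pass.

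**Figure D4:**
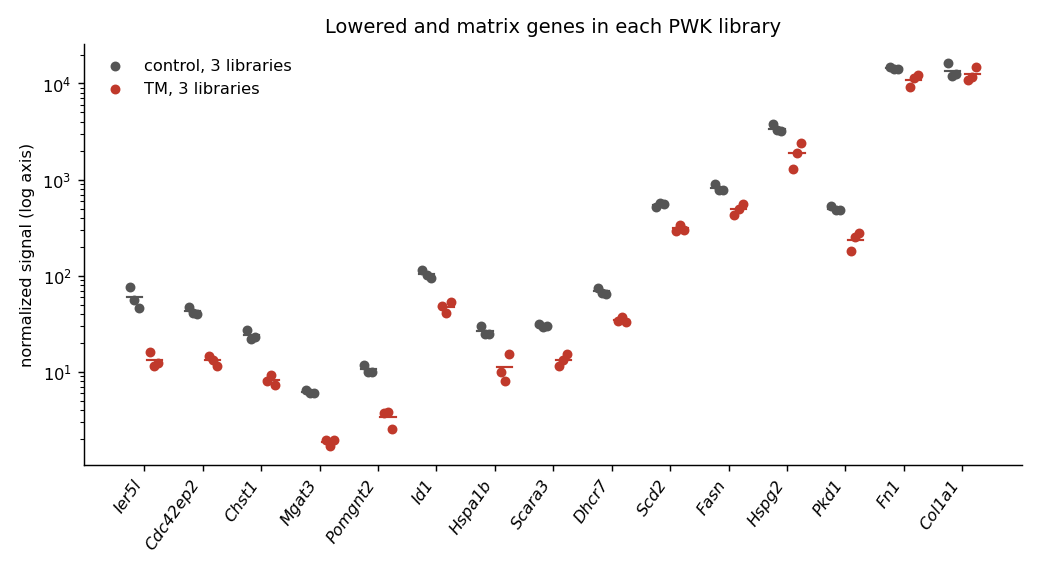
Normalized signal (y axis, log scale) of 15 lowered or matrix genes in each of the 3 control (grey) and 3 TM (red) PWK libraries, with bars at the group means. Ier5l, Cdc42ep2 and Mgat3 are the most clearly separated, and the groups of Col1a1 overlap.

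A pair of further groups showed changes in transcripts of other kinds. Of 5 listed snoRNA host genes 4 were induced (80%, against 6.36% of all tested genes). They were Snhg12 (27.7, 27.6 and 27.5 in control, 110, 90 and 93.8 in TM cultures), Snhg1, Snhg5 and Gas5, whereas Snhg3 was not called (log2 -0.20). Snhg1 and Snhg5 had no GC value, and the corrected calls, 2 in number, were Snhg12 and Gas5. Their spliced RNAs are known to be degraded while translated. Of 318 tested Zfp genes, most of which encode zinc finger factors, 49 were induced and 8 were lowered, which is 15.4% and 2.52% against 6.36% and 4.3% of all tested genes. Zfp57, a factor that maintains imprints, rose 3.68-fold from 18.5, 18.4 and 15.5 to 72.6, 63.3 and 58.5, and Zfp651 fell from 52.5 ± 5.07 to 20.9 ± 1.64. The number of induced Zfp genes was 31 without control replicate 1 and 26 with the GC correction.

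GC content moved with the response. The median GC content of the longest annotated transcript was 45.8% in induced, 55.5% in lowered and 49.8% in all tested genes. Among the 3145 genes with the lowest GC the median log2 fold change was 0.21, with 11.7% induced and 0.382% lowered, and among the 3145 with the highest GC it was -0.23, with 3.34% and 10%. Control replicate 1 had the strongest such slope of the 6 libraries, its high-GC genes lying 0.24 above and its low-GC genes 0.23 below the mean of the libraries on the log2 scale. The high-GC genes stood at 0.07 and 0.03 in control replicates 2 and 3, and at -0.08, -0.16 and -0.07 in TM replicates 1, 2 and 3. The part of GC content in the calls was not tested beyond a correction of each library for GC content and length, which left 630 induced and 338 lowered genes, 533 and 265 of them shared with the genes above. The correction works on each library's deviation from the mean of the 6, so it also removes any TM response that follows GC content or length. Calls lost under it were not tested further. Leaving out control replicate 1 left 639 induced and 301 lowered genes, 621 and 284 of them shared. The counts of the lists of ER chaperones, ATF4-CHOP regulators and inflammatory genes were 16, 14 and 28 with the correction and 17, 14 and 26 without that library.

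The direction of the PWK response was shared by the other strains, whose libraries took no part in choosing the genes. The 810 induced genes had a positive log2 fold change in all 7 other strains in 712 cases (87.9%), against 19.9% of all tested genes. The 548 lowered genes had a negative change in all 7 in 490 cases (89.4%), against 21.1% of all tested genes. In the other strains the median log2 fold change ranged from 0.63 in NOD to 0.80 in NZO for the induced genes and from -0.46 in NOD to -0.81 in WSB for the lowered genes. Tested within each strain by the same thresholds, 0.315% of genes were induced in 129, 0.32% in NZO, 0.346% in A, 1.45% in NOD, 2.54% in CAST, 2.85% in WSB and 5.04% in B6. Lowered genes made up 0.0078% in NZO, 0.00786% in A, 0.00787% in 129, 0.165% in NOD, 0.478% in CAST, 3.22% in B6 and 4.2% in WSB. Without control replicate 1, PWK had 639 induced and 301 lowered genes of 12688 tested. In B6, whose replicates had the smallest spread of all strains, 639 genes were induced, and 473 of them were PWK-induced genes (58.4% of the PWK list and 74% of the B6 list). CAST had 318 induced genes, 279 of them shared (34.4% and 87.7%). For the lowered genes 217 were shared with B6 (39.6% and 53.2%) and 46 with CAST (8.39% and 76.7%). The test called 252 induced and 275 lowered genes in PWK and in no other strain, but 180 and 229 of these had the same sign in all 7, and of these 527 genes 7 had a PWK change that passed the test of the difference described next. Founder groups held from 2 to 3 libraries and their spread differed between strains, so counts of calls are not on 1 footing.

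Whether the TM change in PWK lay above or below that of the others was tested in 1 limma fit over 40 libraries. The tested difference was the signed log2 fold change in PWK minus the mean of the 7 other strains. Its p-values measure the spread between cultures and not the spread among strains, as each strain was 1 pooled cell stock. A difference of the strain cannot be told apart from one of its cell stock. At an adjusted p under 0.05, 24 genes had a larger change in PWK and 2 a smaller change, 0.182% and 0.0152% of 13197 genes. A smaller change is thus a lower signed value, which was negative in PWK for the 2 genes. Hspa5, Ddit3, Herpud1, Atf4 and Xbp1 were not among the genes that passed, whereas Ppp1r15a of the ATF4-CHOP list was. The difference was 0.08 for Hspa5, 0.08 for Ddit3, -0.28 for Herpud1, 0.12 for Atf4 and -0.14 for Xbp1, each with an adjusted p of at least 0.935. List medians of the difference were -0.05 for the ER chaperones, -0.01 for ERAD, 0.25 for the ATF4-CHOP regulators, 0.32 for the inflammatory genes and 0.42 for the AP-1 genes. Over all 26 lists they ran from -0.17 for the snoRNA host genes to that 0.42. The marker lists held no called gene. Their medians were 0.3 for myeloid, 0.3 for epithelial, 0.18 for endothelial, 0.09 for fibroblast and 0.03 for muscle markers.

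Of the 24 genes 4 were members of the inflammatory list (Cxcl1, Lif, Tnfaip3 and Birc3). Cxcl1 had a log2 fold change of 5.21 in PWK and of 1.89 (129) to 4.62 (CAST) in the other strains, a difference of 1.26 (SE 0.19, adjusted p = 0.00136). Tlr2, a receptor for bacterial lipoproteins, rose from 4.08, 4.1 and 3.88 to 24.6, 23.9 and 22.7 in PWK (2.53), against 0.67 to 1.75 elsewhere. Lif was at 3.10 in PWK and at 1.15 to 2.72 elsewhere. Ppp1r15a was at 2.55 against 1.49 to 2.09, with a difference of 0.83, and Plk2 at 1.51 against 0.55 to 1.49. Bean1 rose from 18.4, 16.5 and 16.5 to 33.5, 29.4 and 32.2 in PWK (0.89), whereas its change elsewhere was -0.45 to 0.07. PWK had the highest TM change of the 8 strains for all 24 genes, which their selection favours. These 6 genes passed in each of the 6 fits that left out 1 PWK library. Over those fits the number of genes with a larger change was 6 to 20, and 14 genes passed without strain 129, which had the lowest change for 12 of the 24. Cxcl1 did not pass without 129 (adjusted p = 0.0595). Cxcl2, with the largest fold change of all, had a difference of 1.75 that did not pass (adjusted p = 0.16), nor did Atf3 (0.96, adjusted p = 0.0597).

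The transcript U90926 was the only PWK-induced gene with the opposite sign in all 7 other strains. It was at 2.57, 2.56 and 2.47 in PWK control and at 10, 8.56 and 8.19 in PWK TM cultures (1.77), with changes of -1.08 to -0.15 elsewhere and a difference of 2.43 (adjusted p = 0.0181). That difference passed in none of the 6 fits that left out 1 PWK library. Of the 2 genes with a lower signed change in PWK, Gne, which starts sialic acid synthesis, went from 26.2, 22.1 and 23.8 to 17.4, 17.1 and 16.8. Its change was -0.48 in PWK against -0.18 to 0.23 elsewhere (adjusted p = 0.0499), so PWK had the stronger fall. Gne passed in none of the 6 fits that left out 1 PWK library. The other, AW011738, had 0 to 4 reads in each PWK library.

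**Figure D5:**
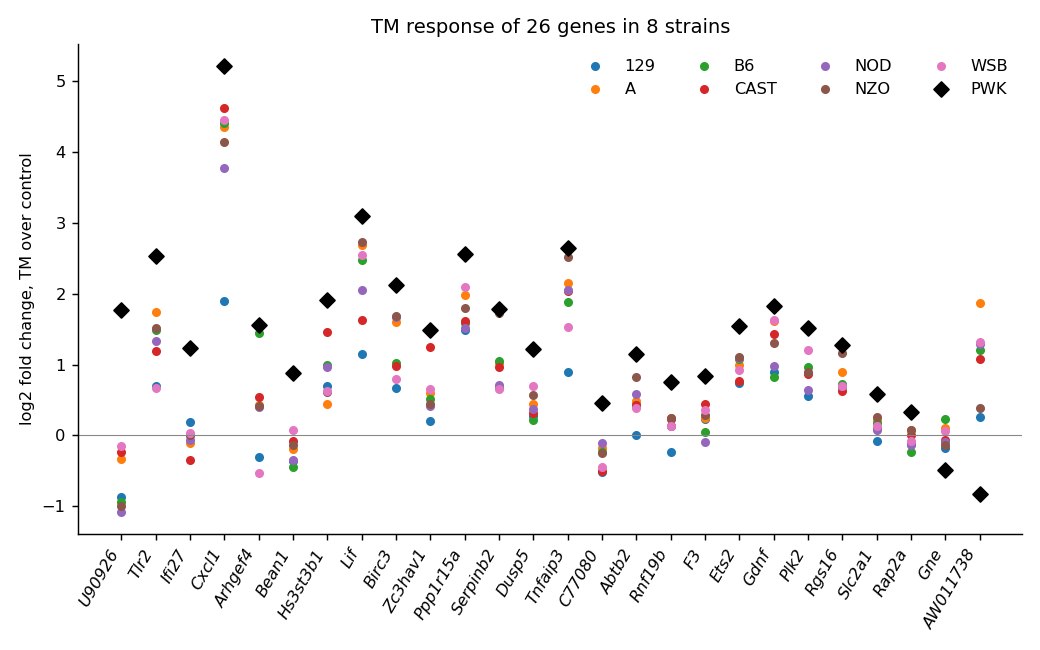
Log2 fold change of TM over control (y axis) of the 26 genes with a different TM change in PWK, in PWK (black diamonds) and in each of the 7 other strains (coloured points), from the fit over 40 libraries. PWK lies above every other strain for 24 genes and below every other strain for Gne and AW011738.

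Set against single strains in the fit over 40 libraries, fewer genes differed. These counts depended on the fit, and CAST and B6 held 4 libraries each. Fits of the libraries of the 2 strains alone gave 12 genes for CAST and 43 for B6. The counts therefore do not measure how alike the strains are, and the genes below are those of the fit over 40 libraries. Between PWK and CAST, a wild-derived strain of M. m. castaneus, 3 of 13197 genes differed (0.0227%). Lif rose more in PWK (3.10 against 1.62), Apobr, a lipoprotein receptor, rose in PWK alone of the pair (1.61 against -0.17), and Sesn2, a stress-induced regulator of mTORC1, rose less in PWK (1.05 against 2.15, adjusted p = 0.0149). Between PWK and B6, the reference strain, 4 genes differed (0.0303%), with larger changes in PWK for Acot2, Gdnf, Ppp1r15a and Bean1. Acot2, a mitochondrial thioesterase, rose from 5.41, 5.84 and 5.24 to 28.6, 27.1 and 24 in PWK (2.25), against 1.12 in B6 (adjusted p = 0.0401).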

How the data were processed

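RNA-seq libraries of 6 PWK MEF cultures, 3 control and 3 TM, were analysed together with the 34 libraries of the other founder strains. Per the labels and methods, the authors sequenced single-end 100 bp reads, aligned them with TopHat 1.4.1 to a genome made for each strain on GRCm38 with up to 3 mismatches, normalized with the TMM method of edgeR, and left out those libraries which failed to cluster by condition. The use of strand in counting is not given in the sources used here, so overlapping genes may share reads. The values deposited by the authors are called FPKM but are a normalized signal per gene: in every library each value is a whole number of reads times 1 step (100% of values within 0.1 read), so values are not per length and favour long genes. The labels also name FastQC and Trimmomatic, and the study's methods describe trimming for the F1 crosses alone. One read is worth 0.0512 to 0.101 in PWK libraries, and 3 reads, the limit of a count of 0, 0.154 to 0.302. Intervals and limits cover counting error only.

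Genes with a signal of at least 0.5 in at least 2 of 6 libraries were tested with limma 3.58.1 (trend) on log2(signal + 0.1) in R 4.3.3, with Benjamini-Hochberg adjustment over all tested genes, an adjusted p under 0.01 and at least 1.5-fold. Differences between strains came from a fit over 40 libraries at an adjusted p under 0.05. On the whole reads edgeR 4.0.16 called 717 induced and 386 lowered genes in 5 libraries (without TM replicate 2, whose step is close to 0.1) and 872 and 498 in 6. The steps were tested on simulated data. Replicate numbers do not pair PWK cultures (correlations of deviations 0.097, 0.106 and -0.025 for replicates 1, 2 and 3), so no block was used. The 26 gene lists, their members and the tests were chosen with earlier results of these data known. Genes are named by a rule: per direction the 12 largest fold changes at a mean signal of at least 2 and the 8 largest changes in signal, per list up to 4 called genes per direction and up to 2 not called with the highest control signal, the 8 smallest p of the strain difference per direction, and Hspa5, Ddit3, Xbp1, Atf4, Ern1, Eif2ak3, Atf6 and Dpagt1. Other genes named, to list the members called in a list, as ERSE or ERSE-II holders, as markers, or as passing a test of strain differences, were chosen after their values were seen. Alternatives were another pseudocount, filters, scaling, a replicate block, no trend, other thresholds, leaving out each library, and corrections named in the closing section. The tables of F1 crosses, normalized separately and without PWK, were not used. Some single genes of the lists are counted but not reported here by name.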

Additional observations from a re-analysis of the deposited data

Results flagged for a closer look

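Genes are given here because the change under TM in PWK cells differed from that in other strains by a test of the difference itself. All differences are log2 fold changes of PWK minus those compared, from the limma fit over 40 libraries, and no explanation was weighed. Against the mean of the 7 other strains, the difference was 1.26 for Cxcl1, 1.30 for Tlr2, 0.83 for Ppp1r15a, 1.10 for Bean1, 0.56 for Plk2 and 0.92 for Lif, the 6 genes that passed in all 6 fits without 1 PWK library. It was 0.82 for Serpinb2, 1.22 for Arhgef4 and 0.92 for Birc3, which passed in 3 of those fits. The other genes passed in at most 2 of them. Their differences were 0.59 for Ets2, 0.71 for Abtb2, 0.80 for Dusp5, 1.08 for Hs3st3b1, 2.43 for U90926, 0.49 for Rgs16, 0.78 for Tnfaip3, 1.27 for Ifi27, 0.46 for Slc2a1, 0.77 for C77080, 0.63 for Rnf19b, 0.62 for F3, 0.91 for Zc3hav1, 0.39 for Rap2a and 0.58 for Gdnf. The lower signed changes were a difference of -1.89 for AW011738 and of -0.47 for Gne. Of the 24 genes with a larger change 22 were induced in PWK, and C77080 (0.45) and Rap2a (0.34) were not called there.

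Against CAST the difference was 1.48 for Lif, -1.10 for Sesn2 and 1.78 for Apobr, and against B6 it was 1.13 for Acot2, 0.99 for Gdnf, 0.97 for Ppp1r15a and 1.33 for Bean1. All 7 of these differences also passed in a fit of the libraries of the 2 strains alone.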

How the results depend on the processing

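The number of induced genes stayed within 1.5 times the 810 reported under every alternative run (593 to 920), and that of lowered genes did so except after the GC and length correction (338), in the fit over 40 founder libraries (322) and without control replicate 1 (301, against 714 without TM replicate 3). The GC and length correction, edgeR on 5 libraries and leaving out strain 129 were chosen after the data were seen. The labels pair control and TM libraries by no more than a shared replicate number, and a replicate block gave 823 induced and 606 lowered genes. Of 168 named genes 111 were called, of which 83 kept their call in all 17 alternatives and none reversed. Genes not called that changed sign were, after the GC correction, Adra2a (0.22), Atf5 (0.04), Ccng1 (-0.19), Col1a1 (0.24), Hsp90ab1 (-0.004), Krt18 (0.11), Prdx1 (-0.32), Rps2 (0.057) and Zfp36l2 (0.075). With edgeR Krt18 was 0.06 (5 libraries) and 0.006 (6 libraries). The range over the 6 fits without 1 library crossed 0 for Col1a1 (-0.258 to 0.013), Krt18 (-0.079 to 0.049), Prdx1 (-0.075 to 0.097), Zfp106 (-0.051 to 0.159), Hsp90ab1 (-0.022 to 0.056), Dpagt1 (-0.190 to 0.163) and Nr2f2 (-0.131 to 0.052). The 24 larger and 2 smaller changes in PWK became 47 larger at a pseudocount of 1, 4 smaller with no trend, 92 and 44 with array weights, 40 and 6 without strain A, 14 and 1 without strain 129, 7 and 0 at 1% FDR (limma, 517 genes in both directions at an unadjusted p under 0.05), and 6 to 20 and 0 to 2 without 1 PWK library. With a replicate block limma called 0 and 0, with 182 and 137 at an unadjusted p under 0.05. That fit held only the 16 pairs of libraries that share strain and replicate number, so its set of samples differed. Differences from CAST numbered 12 in a fit of both strains alone and 16 at a pseudocount of 1, and from B6 43 in a fit of both strains alone. The causes were not tested.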
